A study of Mus musculus with 5 samples.

Results

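The guanylate-binding proteins (GBPs) are a family of large GTPases that interferons induce. They gather on the membranes of vacuoles that hold microbes and on bacteria in the cytosol, where they recruit further defence proteins, among them the immunity-related GTPases (IRGs), and help to start inflammasome signalling. Their genes respond both to interferon gamma and to type I interferons. The members described here are the 8 listed genes Gbp2, Gbp3, Gbp4, Gbp5, Gbp6, Gbp7, Gbp8 and Gbp9, chosen by symbol out of 32285 genes in the count matrices. All 8 were present in every library's gene list.

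Single-nucleus RNA-seq was run on mouse brain nuclei that were sorted as positive for the DNA dye DAPI and negative for NeuN, a neuronal protein, and Olig2, an oligodendrocyte-lineage protein, to enrich microglia. The labels give hippocampus, and the extraction methods name no brain region. There were 2 R241E libraries, from tamoxifen-treated young adult mice with Tmem119-creERT2 and 1 R241E allele of Cgas beside a wild-type allele, and 3 WT libraries, from mice with Tmem119-creERT2 and wild-type Cgas on both alleles. Whether the WT mice also received tamoxifen is not given in the sources used here, and a treatment text on H151 that accompanies every sample is assigned to none of them. cGAS is a DNA sensor upstream of STING and type I interferon, and the study describes R241E as a form that no longer binds nucleosomes. Tmem119 drives recombination chiefly in microglia, with some in brain macrophages, and the nuclei that had recombined were not identified here. The controls are called heterozygous in the study's results but wild type in its methods and in the sample titles, and the titles were followed.

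The 5 libraries held 9748 nuclei and between 4183709 and 10130667 UMIs (unique molecular identifiers, one for each captured RNA molecule) each, and 9505 nuclei were kept. Between 0 and 2 barcodes were shared by any pair of libraries. Nuclei were grouped into classes named from marker genes, and each class name is short for nuclei that resemble it. The class called monocytes or neutrophils was led by Cd74, H2-Aa, H2-Eb1 and H2-Ab1, genes of MHC class II presentation, followed by S100a9, Ccr2 and S100a8. Its mean log2 marker fold was 7.15, and that of dendritic cell markers in it 5.74, so it may hold dendritic cells. The class called microglia held 1006 and 525 R241E nuclei and 926, 1472 and 1452 WT nuclei, and all 9 microglial markers were higher in it than in all other nuclei together, with P2ry12 at 1314 against 131 CPM (UMIs of a gene per 1000000 UMIs of the class). WT microglia lay mostly in clusters 1 and 2 and R241E microglia mostly in clusters 3 and 6.

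The members lie in 2 gene clusters. In assembly GRCm38.p6, which is mm10, Gbp5 (chr3:142496934-142522344), Gbp7 (chr3:142530336-142550151), Gbp3 (chr3:142560016-142573213) and Gbp2 (chr3:142620663-142638008) fall within 141 kb of chromosome 3, together with Gbp2b. Gbp8 (chr5:105012513-105053609), Gbp9 (chr5:105076464-105110357), Gbp4 (chr5:105115767-105139586) and Gbp6 (chr5:105270702-105295871) fall within 334 kb of chromosome 5, together with Gbp10 and the pseudogene Gbp11. All 8 members are annotated as protein coding.

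The stretches before the starts of the chromosome 3 members are shown because they hold the letters of the interferon-stimulated response element (ISRE), a DNA element found before many interferon-induced genes. The ISRE core searched for was GAAA, any 2 bases and GAAA again, on either strand, so that its reverse complement reads TTTC, any 2 bases and TTTC. Each line gives 100 bases from RefSeq (GRCm38.p6, plus strand) that end before the annotated gene start, with matches in capitals, and every match shown is in the reverse complement form.
Gbp5, chr3:142496724-142496823: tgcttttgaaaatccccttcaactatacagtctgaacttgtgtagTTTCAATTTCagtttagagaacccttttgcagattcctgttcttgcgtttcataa
Gbp7, chr3:142530236-142530335: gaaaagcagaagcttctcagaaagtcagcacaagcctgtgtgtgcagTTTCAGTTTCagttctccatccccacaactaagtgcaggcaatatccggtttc
Gbp3, chr3:142559916-142560015: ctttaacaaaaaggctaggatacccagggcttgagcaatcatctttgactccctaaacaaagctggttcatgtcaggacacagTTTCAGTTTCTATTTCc
Gbp2, chr3:142620559-142620658: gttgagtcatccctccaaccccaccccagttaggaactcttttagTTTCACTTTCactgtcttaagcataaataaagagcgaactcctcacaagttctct

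All 4 chromosome 3 members had an ISRE core within the 250 bases before a start, while 3.46% of 27025 genes did. Gbp3 had 2 matches that overlap, and another Gbp3 start had no match before it. The gamma-activated site (GAS) is an element of interferon gamma responses whose letters TTCNNNGAA read the same on both strands. It was found at 2 places before each of Gbp5 and Gbp7 and not in these windows of Gbp3 and Gbp2. Of all genes, 8.13% had a GAS in such a window. The promoter table used here has entries for Gbp5, Gbp7, Gbp3 and Gbp2 among the members. A match is a string of letters and does not show that a factor was bound.

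All 8 members rose in R241E microglia. In edgeR's quasi-likelihood test on counts summed per library, fitted over 12725 genes, 8 of 8 members had a Benjamini-Hochberg adjusted p under 0.05 and were higher in R241E, where 6.08% of all genes tested were called higher and 3.24% lower. Both R241E libraries were above all 3 WT libraries for each member, as was the case for 20.3% of all genes tested. The size of the rise differed widely, from below 1 to almost 6 on the log2 scale, and the 3 members with the largest rises were those with fewest UMIs in WT microglia. These 3, Gbp6, Gbp4 and Gbp2, passed the filter on low counts only through their R241E counts, so they could only be called higher. No batch is given in the labels, so none could be fitted. Among markers of other cells counted in microglia, the monocyte or neutrophil list summed to 740 and 642 CPM in R241E and 567, 561 and 583 CPM in WT, without overlap and with 7 or 8 of 8 markers seen. Csf3r on this list was at 315 CPM in the monocyte or neutrophil class and 311 CPM in all other nuclei. The sum is therefore not specific to monocytes or neutrophils. The lymphocyte list (7 to 9 of 12 seen) summed to 18.8 and 13.1 CPM against 9.30, 9.45 and 13.5 CPM, which overlap. Border-associated macrophage markers (5 to 8 of 8 seen) were lower in R241E, at 10.1 and 8.99 CPM against 17.4, 20.5 and 14.1 CPM, as were endothelial markers (5 to 8 of 8 seen), at 31.4 and 29.0 CPM against 42, 38.5 and 41.4 CPM. The part of these cells in the microglial values was not tested. With 2 against 3 libraries an exact permutation test could not go below 0.1 (one-sided).

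Gbp6, Gbp4 and Gbp2 were near 0 in WT microglia. Gbp6 had 67 and 26 UMIs in R241E (21 and 18 CPM), against 1, 2 and 0 WT UMIs. Gbp4 had 75 and 30 UMIs in R241E (23.6 and 20.7 CPM), against 2, 1 and 4 WT UMIs. Gbp2, which binds microbe-containing vacuoles and is anchored in membranes by a lipid tail, had 44 and 14 UMIs in R241E (13.8 and 9.68 CPM), against 1, 4 and 2 WT UMIs. The groups do not overlap for any of these genes, and the R241E libraries lie far above them. The ratio of the pooled CPM, R241E over WT, was 67.9 for Gbp6 (exact 95% counting interval 22.5 to 335), since it rests on 3 WT UMIs. It was 32.9 for Gbp4 (15.4 to 83.7) and 18.2 for Gbp2 (8.27 to 47.1), with 7 WT UMIs each. The edgeR log2 fold changes were 5.86 (SE 0.485, adjusted p = 7.59e-07) for Gbp6, 4.92 (SE 0.408, adjusted p = 7.79e-07) for Gbp4 and 4.05 (SE 0.463, adjusted p = 2.60e-05) for Gbp2. Each SE beside an edgeR value is the size of the log2 value over the square root of the edgeR F statistic. DESeq2's own SEs were larger for these genes, at 0.935 for Gbp6, 0.671 for Gbp4 and 0.759 for Gbp2. With 1 WT library left out the edgeR log2 fold changes moved: Gbp6 to 6.49 without WT replicate 2, Gbp4 to 5.51 without WT replicate 3, and all calls were kept.

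Gbp8, Gbp9, Gbp5 and Gbp3 were present in WT microglia and rose by 1.58 to 2.44 on the log2 scale. R241E libraries had 51.5 and 38 CPM of Gbp8, and WT libraries 7.68, 9.68 and 7.20 CPM. Its log2 fold change was 2.44 (SE 0.215, adjusted p = 1.56e-06). For Gbp9 the R241E values were 27.3 and 20.1 CPM and the WT values 6.47, 6.46 and 6.60 CPM, and its log2 fold change was 1.89 (SE 0.242, adjusted p = 8.34e-05). Both genes had every R241E library well over every WT library.

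Gbp5, which is known for promoting NLRP3 and AIM2 inflammasome assembly, measured 46.8 and 31.8 CPM in R241E against WT values of 9.70, 14.3 and 15 CPM, a log2 fold change of 1.60 (SE 0.219, adjusted p = 0.00016). Gbp3 measured 18.8 and 10.4 CPM in R241E against WT values of 4.45, 4.61 and 6.30 CPM, a log2 fold change of 1.58 (SE 0.316, adjusted p = 0.0039). For both, R241E replicate 1 lay well over R241E replicate 2, and the groups did not overlap. Without R241E replicate 1, Gbp3 was no longer called (log2 fold change 0.98, adjusted p = 0.335).

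Gbp7, which is known for acting on the NADPH oxidase of phagocytes, had the smallest rise. R241E libraries had 44 and 44.9 CPM, and WT libraries 27.1, 25.6 and 33.9 CPM, a log2 fold change of 0.61 (SE 0.164, adjusted p = 0.0292). The groups did not overlap, but the call was lost when any library other than WT replicate 3 was left out, with adjusted p from 0.0823 to 0.205, and with DESeq2's Wald test (adjusted p = 0.13). Gbp7 contributed 45.0% of all GBP UMIs in WT microglia (exact 95% interval 41.1 to 48.9) and 19.2% in R241E microglia (16.9 to 21.7).

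Summed over the members, the GBP level in R241E microglia was 247 and 194 CPM, against 57.0, 62.2 and 70.8 CPM in WT microglia, or 220 ± 37.7 (SD, n = 2) against 63.4 ± 6.98 (SD, n = 3). The sum is given as a description, with no test. The chromosome 3 members made up 50.0% of GBP UMIs in each R241E library, against 73.0%, 73.0% and 78.8% in WT. In CPM the chromosome 3 members went from 41.6, 45.4 and 55.8 in WT to 123 and 96.8 in R241E, and the chromosome 5 members from 15.4, 16.8 and 15 to 123 and 96.8. Both gene clusters were thus higher in R241E, with equal summed levels there.

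By transcript sequence, Gbp6 is the member that shares most with other genes. Of its distinct 90-base stretches in the GENCODE vM39 transcripts, 55.0% also occur in transcripts of another gene, most of them (48.8%) in Gm43302, and 53.0% of the Gbp10 stretches occur in Gbp6. The Gbp6 and Gbp10 values are therefore uncertain. These shares cover whole transcripts, while the libraries were made with a 3' kit, so they do not measure how many reads were affected. For the other members the share of stretches found in another gene was 9.16% for Gbp7, 4.41% for Gbp8 and under 2 percent for the rest. Gbp10 had 2 UMIs in R241E microglia and 0 in WT microglia, Gbp2b had 0 in both, and neither passed the filter on low counts. Gbp11 was not analysed here.

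GBP UMIs were spread unevenly over R241E nuclei. The smallest microglia cluster, numbered 19, held 71 and 30 R241E nuclei (7.06% and 5.71% of their libraries' microglia) and 0, 2 and 1 WT nuclei. All 9 microglial markers were detected in it, and its leading genes were Ifi207, Ifi213, Ifi211 and Cxcl10, which interferons induce. Their median depth was 3388 and 3438 UMIs, against 3025 and 2466 in the other R241E microglia. The GBP genes and the study's interferon list had been kept out of the genes used to cluster. These nuclei carried 256 of 786 and 108 of 280 GBP UMIs, or 32.6% and 38.6%, at summed levels of 1011 and 971 CPM. In clusters 1, 2, 3 and 6 the summed level was 79.3 to 189 CPM in R241E and 50.8 to 80.4 CPM in WT, counting libraries with at least 20 nuclei in a cluster.

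**Figure D1:**
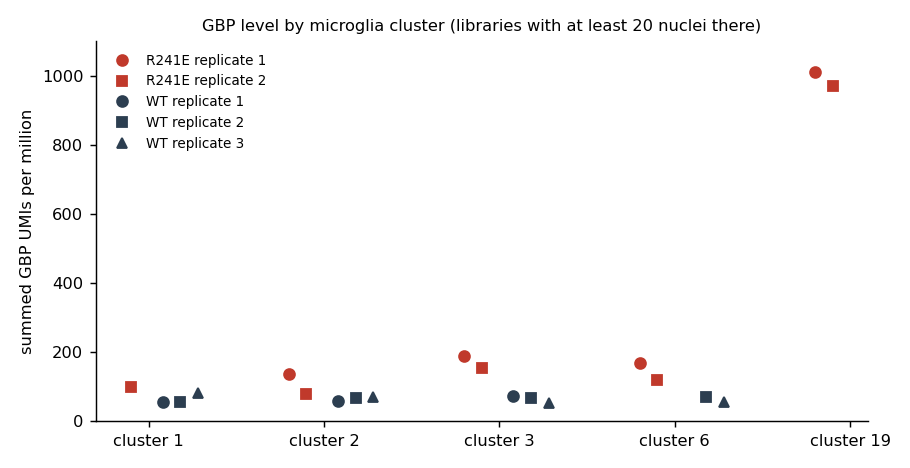
Summed GBP level in CPM (vertical axis) in each microglia cluster (horizontal axis), 1 point per library with at least 20 nuclei there, R241E in red and WT in dark blue. Cluster 19 stands at 971 and 1011 CPM in R241E, and R241E points lie above the WT points of the same cluster.

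Cluster 19 held different shares of different members. It carried 59.1% and 35.7% of Gbp2 UMIs, 43.3% and 65.4% of Gbp6 UMIs and 38.7% and 63.3% of Gbp4 UMIs in R241E replicates 1 and 2, but 14.9% and 20.7% of Gbp9 UMIs. When cluster 19 was left out, an alternative chosen after its values were seen, 6 of 8 members were still called higher. Gbp7 then had a log2 fold change of 0.23 (adjusted p = 0.567) and Gbp3 one of 1.09 (adjusted p = 0.0638), while Gbp6, Gbp4 and Gbp2 were at 4.95, 4.55 and 3.32 and Gbp5 at 0.98 (adjusted p = 0.01). The summed level in R241E microglia without cluster 19 was 181 and 129 CPM.

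**Figure D2:**
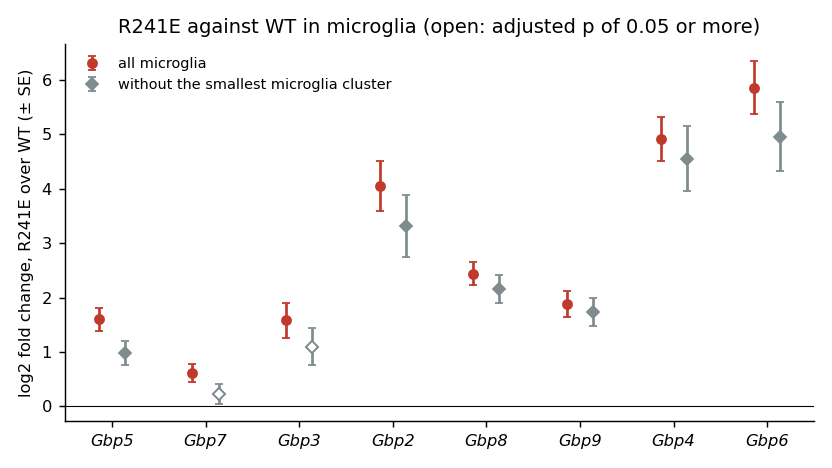
Log2 fold change of R241E over WT in microglia for each member, from edgeR on all microglia (red) and without cluster 19 (grey). Bars are standard errors derived from the edgeR F statistic. Open symbols had an adjusted p of 0.05 or more, which applies to Gbp7 at 0.23 and Gbp3 at 1.09 in the grey series.

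With each nucleus thinned to 1000 UMIs, 18.2% (exact Clopper-Pearson 95% interval 15.8 to 20.7) and 14.8% (11.8 to 18.3) of R241E microglia had at least 1 GBP UMI. In WT this was 5.54% (4.14 to 7.24), 5.25% (4.16 to 6.53) and 6.27% (5.05 to 7.67). Thinning left out 9 and 26 R241E nuclei and 23, 25 and 64 WT nuclei that were shallower, and without thinning the shares were 39.7% and 28.6% against 12.7%, 13.7% and 13.6%. In neurons, the class set beside them as a guide to free RNA, the thinned shares were 0% to 4.44% over the 5 libraries, from 45 to 231 nuclei, at median depths of 3058 to 5950 UMIs against 2136 to 3095 in microglia. The neuron intervals reach up to 15.1%, so they overlap the WT microglial shares. For Gbp7 alone the thinned share was 3.06% in R241E and 2.84% in WT microglia (group means). These intervals cover counting error only.

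Nuclei with several members were seen mainly in R241E. Unthinned, 127 of 1006 and 42 of 525 R241E microglia held UMIs of at least 2 members, against 7 of 926, 30 of 1472 and 15 of 1452 in WT. At least 4 members were found in 16 and 6 R241E nuclei and in 0 WT nuclei. One R241E replicate 1 nucleus held 40 GBP UMIs and one R241E replicate 2 nucleus 19, both in cluster 19, while no WT nucleus held more than 4.

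Within microglia, the GBP level stood apart in the nuclei that carried most RNA of interferon genes, a description with no test. The interferon list holds no GBP and is the one the study scored these nuclei with, which its methods trace to earlier publications. All 28 of its genes were called higher in R241E microglia, and 25 of them were used for the bins. Some of the 28, such as Ifi44 with 0 WT UMIs, passed the filter on low counts only through R241E. Nuclei with 0 list UMIs at 1000 UMIs were 24.9% and 30.1% of R241E and 81.3%, 79.9% and 83.0% of WT microglia. In these nuclei the summed GBP level was 171 and 106 CPM in R241E and 52.2, 61.0 and 69.7 CPM in WT, so the groups did not overlap there either. With 1 list UMI the level was 149 and 114 CPM in R241E and 64.0, 62.5 and 74.7 CPM in WT. With 2 to 3 it was 176 and 150 CPM against 127, 52.6 and 67.4 CPM, so that R241E replicate 1 and WT replicates 2 and 3 showed no steady climb below the top bin. In nuclei with 4 or more list UMIs it was 507 and 463 CPM in R241E (238 and 103 nuclei). In WT that bin held only 7, 8 and 7 nuclei, at 289, 384 and 276 CPM with exact Poisson intervals from 89.7 to 756. Most cluster 19 nuclei were in this bin, 69 and 27 in R241E, and without cluster 19 its level was 255 and 181 CPM in R241E. In WT it was then 289, 261 and 179 CPM, from 7, 6 and 6 nuclei, so the groups overlapped.

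**Figure D3:**
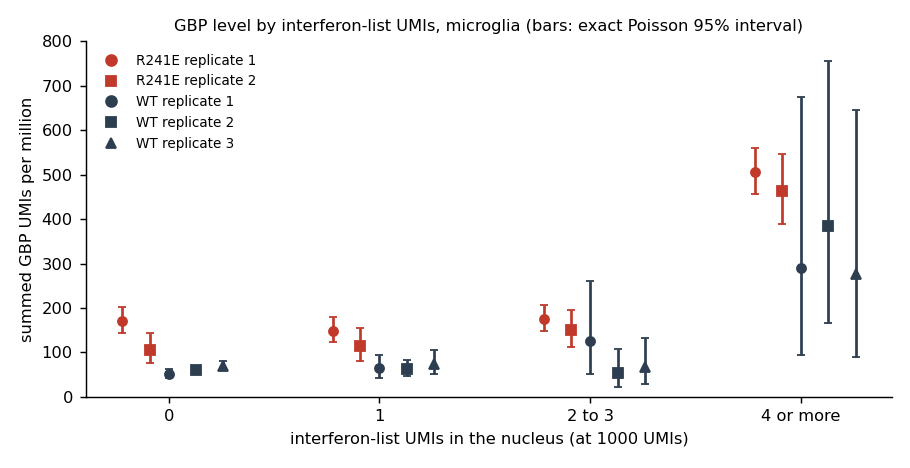
Summed GBP level in microglia in CPM (vertical axis) by the number of interferon-list UMIs in the nucleus at 1000 UMIs (horizontal axis), 1 point per library with the exact Poisson 95% interval of its count. R241E points stand at 106 and 171 CPM where no list UMI was seen and at 463 and 507 CPM with 4 or more, and WT points have wide intervals in the last bin.

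The genes whose levels followed the summed members most closely over 35 sums (7 classes in 5 libraries) were Ddx58, which encodes the RNA sensor RIG-I (Pearson r = 0.928 across profiles), Trim34a (0.863), the GBP-associated GTPase Irgm2 (0.861), Gm4951 (0.855) and the MHC class I gene H2-K1 (0.847). They are the highest 5 of 13748 genes at a mean of 5 CPM or more that are no GBP, where the median r was 0.0823. The points share libraries and classes, and the values are a description.

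Genes that act with the GBPs were read from lists by role. Of 12 signalling and transcription factors upstream of GBP genes, 7 were called higher, with a median log2 fold change of 1.21 where it was −0.00 over all genes tested. They included Stat2 (log2 fold change 2.35, adjusted p = 5.34e-09), the MHC class I activator Nlrc5 (3.82, adjusted p = 4.41e-11) and Irf1 (1.32, adjusted p = 2.30e-05). Stat2 and Nlrc5 are also on the study's interferon list. Of the interferon genes themselves, only Ifnb1 and Ifng were read, and both were scarce in microglia. Ifnb1 had 22 UMIs in R241E microglia and 0 in WT, and was the 1 called of 5 ligand and receptor genes tested (adjusted p = 0.000801). It passed the filter on low counts through R241E alone, so only a rise could be called. Ifng had 1 UMI in R241E and 0 in WT microglia.

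The IRGs, the other family of interferon-induced GTPases, rose throughout: 8 of 8 tested were called higher, with a median log2 fold change of 2.77. R241E libraries had 77.3 and 102 CPM of Iigp1, and WT libraries 0.404, 4.61 and 0.3 CPM. Its log2 fold change was 5.32 (SE 0.379, adjusted p = 1.37e-07), and 7.81 without WT replicate 2. Gm4951 and Tgtp2 rose by 3.62 and 3.94. Iigp1 and Tgtp2 would not have passed the filter on low counts from their WT counts. Among the 7 inflammasome and pyroptosis genes tested, 3 were called higher and 1 lower. Casp4, which senses cytosolic lipopolysaccharide, had a log2 fold change of 1.28 (adjusted p = 3.60e-05), Casp1 one of 0.87 (adjusted p = 0.00345) and the pore-forming Gsdmd one of 0.42 (adjusted p = 0.0312). Nlrp3 was lower, at −0.72 (adjusted p = 0.0107). Gsdmd lost its call without any library other than WT replicate 3, Casp1 without R241E replicate 1 (adjusted p = 0.0538) and Nlrp3 without R241E replicate 2 (adjusted p = 0.0986).

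Of 13 ubiquitin and autophagy factors known at GBP-coated vacuoles, 2 were called higher, Rnf213 (1.95, adjusted p = 3.78e-09), a large ubiquitin ligase on the study's interferon list, and Trim21 (0.94, adjusted p = 0.0292). Trim21 lost its call without R241E replicate 1 (adjusted p = 0.349), R241E replicate 2 (0.052), WT replicate 1 (0.0814) or cluster 19 (0.0659). None of the 5 genes for lipid anchoring of GBPs, Fnta, Fntb, Pggt1b, Rce1 and Icmt, was called by edgeR (0 also at an unadjusted p under 0.05, and 0 by DESeq2 either way; median log2 fold change 0.14).

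Outside microglia no member was called. Only 6 combinations of member and class passed the filter on low counts, and 0 of 6 had an adjusted p under 0.05 in edgeR. An unadjusted p under 0.05 was seen in 5 of 6. Over all genes it was seen in 732 of 7904 in astrocytes, 321 of 3946 in border-associated macrophages and 468 of 5667 in fibroblasts. Gbp3, Gbp6 and Gbp7 in astrocytes passed the filter only through their R241E counts, so only a rise could be called. DESeq2 gave an adjusted p for only 2 of the 6 combinations, Gbp7 and Gbp8 in border-associated macrophages, and called 0 of these. Gbp3 and Gbp6 in astrocytes had an unadjusted p under 0.05 in DESeq2, as did 340 of 7904 genes there. In these classes few genes were called higher at all, 0.278% of 7904 in astrocytes, 0.836% of 3946 in border-associated macrophages and 0.0176% of 5667 in fibroblasts. Without the filter, 44 combinations were tested and 4 called, all higher: Gbp3 and Gbp6 in astrocytes, Gbp3 in oligodendrocytes and Gbp4 in border-associated macrophages. Of all genes, 152 of 19644 were then called higher in astrocytes, 36 of 18454 in oligodendrocytes and 60 of 15980 in border-associated macrophages.

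In astrocytes, Gbp3 and Gbp6 were higher in both R241E libraries than in any WT library. Gbp6 had 39.3 and 31.2 CPM in R241E and 3.05, 0 and 11.5 CPM in WT, a log2 fold change of 2.55 (SE 0.615, adjusted p = 0.126). Gbp3 had 37.1 and 22.9 CPM in R241E and 3.05, 7.64 and 7.68 CPM in WT, a log2 fold change of 2.32 (SE 0.572, adjusted p = 0.139). Gbp7 averaged 30.5 ± 7.81 (SD, n = 2) against 11.1 ± 6.80 CPM (SD, n = 3), with a log2 fold change of 1.38 (adjusted p = 0.361). Without WT replicate 3 the log2 fold change of Gbp6 was 4.23 (adjusted p = 0.124). R241E astrocytes lay mainly in cluster 8 (171 and 83 nuclei, against 4 and 44 in cluster 12), and those of WT replicates 2 and 3 mainly in cluster 12 (42 and 118, against 17 and 27 in cluster 8), while WT replicate 1 had 38 in cluster 8 and 26 in cluster 12. The part of this in the values was not tested. Gbp4 was at 0 in all astrocytes of all 5 libraries. Such non-overlap held for 10.1% of all genes tested in astrocytes.

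Border-associated macrophages had high GBP levels without the R241E allele. Gbp7 averaged 142 ± 44.4 CPM (SD, n = 2) with the R241E allele and 150 ± 15.9 CPM (SD, n = 3) without it, giving a log2 fold change of −0.17 (SE 0.299, adjusted p = 0.959), and the groups overlapped. Gbp8 averaged 160 ± 25.5 CPM against 103 ± 22.4 CPM, and its groups did not overlap, as for 11.5% of genes tested there, with a log2 fold change of 0.68 (SE 0.305, adjusted p = 0.539). Gbp4 had 19 UMIs in R241E and 2 in WT, a pooled ratio of 10.2 (exact 95% counting interval 2.46 to 90.2), but it did not pass the filter.

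In oligodendrocytes WT nuclei held 6 GBP UMIs in all. Gbp3 had 31 R241E UMIs and 0 WT UMIs there, a pooled ratio of 6.63 with WT set to a floor of 3 counts over the group. This floor covers counting error in WT only, and not in R241E or the spread between libraries. Gbp6 had 17 against 0 UMIs there, a ratio of 3.63 on the same floor. In tanycytes Gbp6 had 39 against 0 UMIs, a ratio of 3.24 on that floor. However, 136 of the R241E tanycytes came from replicate 1 and 12 from replicate 2. In mural cells Gbp6 had 13 UMIs in R241E and 0 in WT, a ratio of 2.52 on that floor. With the filter on low counts, none of these genes was tested in these classes. In fibroblasts Gbp6 had 70.9 and 41.9 CPM in R241E against 64.0, 13.9 and 16.6 CPM in WT (log2 fold change 1.30, SE 0.53, adjusted p = 0.505), and the groups overlapped. R241E replicate 1 had 104 of its fibroblasts in cluster 13 and 58 in cluster 10, while in every other library cluster 10 held more.

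**Figure D4:**
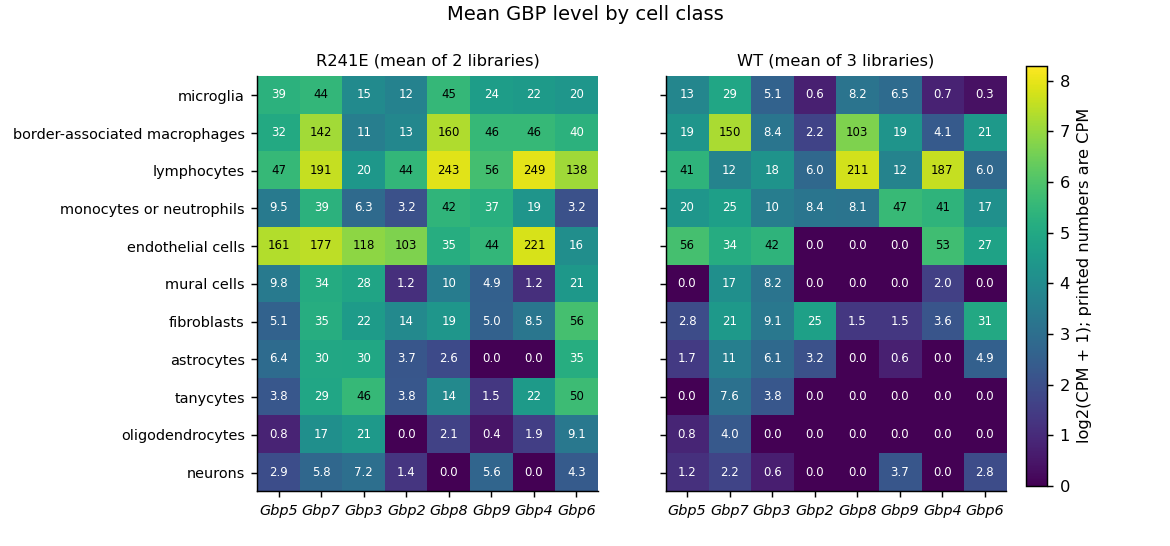
Mean level of each member (horizontal axis) in each cell class (vertical axis) in R241E and WT libraries, coloured as log2(CPM + 1) with CPM printed in each cell. WT border-associated macrophages reach 150 CPM for Gbp7 and 103 CPM for Gbp8, and WT lymphocytes 211 CPM for Gbp8 (14 UMIs) and 187 CPM for Gbp4 (10 UMIs).

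By class, the summed level in WT was highest in lymphocytes (437 to 557 CPM over 3 libraries, from 3, 6 and 28 nuclei with 4, 5 and 27 GBP UMIs), then in border-associated macrophages (270 to 372), endothelial cells (78.4 to 317), monocytes or neutrophils (126 to 229), fibroblasts (46.4 to 181) and microglia (57.0 to 70.8). Lymphocytes lay above border-associated macrophages without overlap, but counts of 4 and 5 UMIs leave that place uncertain. Each of the next 4 classes overlapped its neighbour. Astrocytes (15.3 to 46.1) lay below microglia without overlap, and mural cells (13 to 37.5), tanycytes (0 to 34.1), neurons (4.40 to 17.5) and oligodendrocytes (0 to 14.6) followed, each overlapping the next. In R241E the order was lymphocytes (973 and 1004 CPM), endothelial cells (788 and 963, from 13 and 17 nuclei), border-associated macrophages (450 and 527) and microglia (194 and 247), with no overlap between these 4. R241E tanycytes (142 and 199 CPM) and fibroblasts (136 and 196 CPM) overlapped microglia. Neurons had 10.9 and 43.4 CPM in R241E. Pituitary cells, nearly all from 1 R241E library, and unnamed clusters were left out of both orders.

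Different members led in different classes. Of GBP UMIs in R241E lymphocytes, Gbp4 had 99 and Gbp8 98 of 373, whereas in R241E astrocytes Gbp6 had 51, Gbp3 45 and Gbp7 45 of 157. In R241E endothelial nuclei Gbp4 had 16, Gbp7 13 and Gbp5 12 of 64, with overlapping counting intervals, so none of them stood out. Lymphocytes were 120 and 34 nuclei in R241E and 3, 6 and 28 in WT.

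Whether the R241E effect differed between microglia and another class was tested with library as a block for the 6 members that passed the filter (not Gbp2 and Gbp9), in 6 classes. Of these 36 differences, edgeR called 1, and 6 were at an unadjusted p under 0.05, a level at which all genes were not counted. Over all 11690 genes the share called was 0.248% for astrocytes, 0.163% for border-associated macrophages, 0.18% for fibroblasts, 0.0342% for mural cells and for oligodendrocytes, and 1.15% for neurons. The effect on Gbp6 was smaller in fibroblasts than in microglia by 4.04 on the log2 scale (log2 difference −4.04, SE 0.883, adjusted p = 0.038). It rests on 3 Gbp6 UMIs in WT microglia, and the call was lost when any 1 library was left out (adjusted p from 0.0533 to 0.472). For Gbp6 in border-associated macrophages the difference was −4.21 (SE 0.981, adjusted p = 0.0652). For Gbp3 and Gbp7 in astrocytes it was 0.99 (SE 0.897) and 0.88 (SE 0.582), so neither a difference nor its absence was shown. For Gbp6 in astrocytes the difference was not called, and it ranged from −3.69 to −0.32 over the alternatives.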

How the data were processed

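The authors deposited UMI counts per gene and nucleus for 5 libraries, each from 1 mouse, made with Cell Ranger against mm10. Reads that map to several genes do not enter such counts, and whether intronic reads did is not given in the sources used here. Groups and replicate numbers came from the sample titles.

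From the deposited counts, nuclei with at least 200 genes, under 4500 genes, under 10000 UMIs and under 5% mitochondrial UMIs were kept (limits of the study) and clustered (scanpy 1.11.5, 3000 variable genes without the GBP and interferon-list genes, 30 components, Leiden resolution 1). Clusters were named from marker genes by a rule set after the clusters were seen. Doublets were limited by the upper bounds, since Scrublet called too few nuclei to count as working. Counts were summed per library and class (where every library had 20 or more nuclei) and tested with edgeR 4.0.16 (TMM, filterByExpr, quasi-likelihood) at an adjusted p of 0.05, with DESeq2 1.42.0 as an alternative; scripts were tested on simulated data. Nuclei are not replicates. Named were all members, the called genes with the 3 smallest adjusted p of each pathway list plus Ifng, Ifnb1, Irf1, Casp4 and Gsdmd (some genes are not reported here), and the 5 genes most like the summed members. The members, lists and markers were chosen with earlier results of these data known. Depth was 2126 to 3364 UMIs per nucleus (library medians), and intervals cover counting error only.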

Additional observations from a re-analysis of the deposited data

Results flagged for a closer look

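One difference between classes passed its test. The R241E effect on Gbp6 differed between fibroblasts and microglia by −4.04 on the log2 scale (SE 0.883, edgeR adjusted p = 0.038, 5 libraries, interaction of class and genotype with library as a block). Gbp6 had 93 UMIs in R241E and 3 in WT microglia, and 67 in R241E and 13 in WT fibroblasts. The adjusted p ranged from 0.00101 to 0.472 over the alternatives.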

How the results depend on the processing

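Of 8 members called higher in microglia, 6 to 8 were called in every alternative. Calls outside microglia went from 0 to 1 with mouse number as a replicate block (Gbp6 in astrocytes, log2 4.23, edgeR adjusted p = 0.00103) and to 1 without upper limits on nuclei (Gbp3 in astrocytes, log2 2.70, adjusted p = 0.0426), and to 4 without the filter. The number of differences between classes went from 1 to 2 without the filter and to 0 when any library was left out (range 0 to 0). Leaving out 1 library gave 6 to 8 calls in microglia. The summed level in R241E without the smallest microglia cluster was 155 CPM. The share of microglia with a GBP UMI was 7.81% in R241E and 3.01% in WT at 500 UMIs, and 34.1% and 13.3% without thinning. The summed level at 4 or more list UMIs was 412 CPM in R241E and 198 CPM in WT with all 28 list genes, and 807 CPM in R241E at 500 UMIs. Gbp7 in border-associated macrophages, with 1 library left out, ranged from −0.42 (without R241E replicate 2) to 0.22 (without R241E replicate 1, reversed). The cause of each was not tested.

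Deviations from the group mean correlated at 0.0999 and −0.0192 between same-numbered mice. With only 2 R241E libraries their deviations mirror each other, so this check cannot decide whether the numbers pair the samples. The block left 1 residual degree of freedom and called 8 of 8 members in microglia. Depth limits the classes outside microglia.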
